A study of Mus musculus with 16 samples.

Results

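The 40 genes described here encode the degradative and acidifying parts of the lysosome, the organelle in which macrophages break down material they have taken up. They were taken by name from a list and found by symbol among 55604 listed genes. Members and the other gene lists below were chosen with earlier results of these data known. Counts of called genes therefore describe these lists and are no independent test. They comprise 6 lysosomal membrane proteins, 11 glycosidases, 5 sulfatases, 5 lipid hydrolases and activators, 2 proteases, 2 acid phosphatases, progranulin, 3 transcription factor genes of the TFEB family and 5 subunits of the vacuolar ATPase (V-ATPase). The TFEB family and the V-ATPase subunits were described apart from the hydrolases.

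Lysosomal hydrolases are enzymes that work at acid pH. The V-ATPase is a proton pump with a membrane-bound V0 sector and a catalytic V1 sector, and it provides that acidity by hydrolyzing ATP. TFEB, TFE3 and MITF are related basic helix-loop-helix factors that bind the letters CACGTG, the core of the CLEAR element found near the start of many lysosomal genes, and their activity is known to be controlled largely by phosphorylation and movement into the nucleus. In macrophages, which clear dead cells and debris, lysosomes are abundant, and CD68 and the LAMP proteins are commonly used to mark them.

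RNA was sequenced from 2 subsets of tumor-associated macrophages (TAMs) of female C57BL/6 mice, 6 to 8 weeks of age at the start, which carried ID8 cells in the peritoneal cavity. ID8 is a mouse ovarian surface epithelial line whose tumors spread over the peritoneum with ascites. Cells were taken 6 to 7 weeks after inoculation. After a Ficoll gradient, Tim-4+ TAMs were isolated with antibody-coupled beads against Tim-4, a phosphatidylserine receptor of resident macrophages, and Tim-4- TAMs were then enriched from the remaining cells with beads against F4/80. No tumor-free macrophages were among these libraries, so both groups came from tumor-bearing mice. Each group had 4 libraries, numbered as pairs 793, 784, 783 and 779 in the labels, and values are listed in that order below. Other material of the study appears to exchange these numbers between pairs, with the libraries of a pair kept together, so a pair is named here only by its label. The source of each number (an animal or a pool) is not given in the sources used here. The p-values of the paired test below rest on the spread of within-pair differences over these 4 pairs. This may not be a spread between single animals.

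Library totals were 53527928 to 57768202 counts for the Tim-4+ group and 55618306 to 69594245 counts for the Tim-4- group, so that 3 counts, the limit that a count of 0 allows, correspond to 0.0382 to 0.0630 CPM (counts scaled to a common library total). This limit covers counting error only. CPM values, this limit included, were scaled with TMM factors, which adjust each library so that the bulk of genes is level between libraries. Timd4, the gene of the sorted receptor, was at 524 to 1743 CPM in the libraries labelled Tim-4+ and at 1.96 to 84.9 CPM in those labelled Tim-4-. The summed level of 8 macrophage markers was 43610 to 56446 CPM in Tim-4+ TAMs and 21264 to 34443 CPM in Tim-4- TAMs, and none of them was at 0. Most of each sum was Lyz2, at 33394 to 46905 CPM in Tim-4+ TAMs and 16043 to 27061 CPM in Tim-4- TAMs. Csf1r (means of 2774 and 2357 CPM) and Fcgr1 (137 and 148 CPM) were among the markers not called. The summed level of 10 tumor and mesothelial markers was 108 to 397 CPM in Tim-4+ TAMs and 424 to 1960 CPM in Tim-4- TAMs, with the highest sum in pair 779 and none at 0. Of these markers 9 of 10 were lower in Tim-4+ TAMs in the same test as below. So were 3 of 5 monocyte markers, and 5 of 8 macrophage markers were higher. Over all tested genes 8.43% were lower and 8.97% higher. Among granulocyte and mast cell markers 1 was higher and 2 lower of 7 tested, and among dendritic cell markers 1 and 1 of 5. For T and NK cells 1 of 3 was lower, for B cells 1 of 5, and 1 of 3 erythroid markers was higher. None of 6 fibroblast and endothelial markers was called. Summed erythroid markers were at 246 and 63.2 CPM in pair 783 and at most 3.59 CPM elsewhere. The part of these other cells in the results below was not tested. In such bulk samples, fewer cells of a type and less RNA per cell cannot be told apart.

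TFEB-family motifs near the starts of these genes are shown first, because the factors that read them are among the members. Promoter windows of 300 bases, from 250 before to 50 after each start, were taken from RefSeq on GRCm38.p6 for 35 of the 40 genes. Asah1, Atp6v0d2, Atp6v1b2, Atp6v1h and Galns were not in the table. The 6 letters CACGTG, which read the same on both strands, stood in a window of 11 of 35 members (31.4%). Over all 27025 genes of the table the share was 8.09%, and over the 11042 of them that were tested for expression it was 11.3%. The same letters with T before and A after, which contain the shorter motif, stood in 4 members (11.4%), against 1.12% of all genes and 2.01% of the tested genes. These matches are a description of letters and not of binding. The CLEAR element is known from lysosomal genes, so a high share in a lysosomal list describes the list and not these TAMs. The windows below hold the motif of the 4 members that carry it and rose in Tim-4+ TAMs, and then of 3 of the 4 with the flanking letters. Each is printed 5′ to 3′ on the strand of the gene, with CACGTG in capitals.
Glb1, chr9:114401003-114401062, plus strand: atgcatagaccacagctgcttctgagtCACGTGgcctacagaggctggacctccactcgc
Lamp1, chr8:13159073-13159132, plus strand: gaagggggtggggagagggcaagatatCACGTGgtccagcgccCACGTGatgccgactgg
Gaa, chr11:119267796-119267855, plus strand: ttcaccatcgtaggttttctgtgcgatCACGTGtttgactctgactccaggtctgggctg
Arsa, chr15:89477408-89477467, minus strand: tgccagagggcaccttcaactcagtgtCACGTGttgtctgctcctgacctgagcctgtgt
Mcoln1, chr8:3500421-3500480, plus strand: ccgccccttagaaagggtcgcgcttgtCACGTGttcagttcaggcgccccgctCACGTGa
Atp6v0d1, chr8:105566035-105566094, minus strand: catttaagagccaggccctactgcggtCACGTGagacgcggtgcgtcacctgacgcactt
Atp6v1a, chr16:44139358-44139417, minus strand: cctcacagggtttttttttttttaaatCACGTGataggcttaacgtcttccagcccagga

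Lamp1 held 4 matches in its window, of which 2 are shown, and the match of Glb1 began 48 bases before the RefSeq start. Naglu, Sgsh, Lgmn and Gla held the core as well, Gla with the flanking letters. Of the 12 members in the table that rose in Tim-4+ TAMs, 4 held the core, as did 7 of 22 that were not called, and the windows of Acp5 held no match. Cd68, Hexa, Scarb2 and Lamp2, which all rose in Tim-4+ TAMs, were without the 6 letters in these windows. Both V-ATPase subunits of the table, Atp6v0d1 and Atp6v1a, held the flanked form, and neither was called in the comparison below.

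The levels of the members differed widely within a library. Together the 40 genes took 1.61% to 2.63% of all counts of a library. Per kilobase of merged exons, Psap ranked highest, with a mean of 1790 CPM per kilobase in the Tim-4+ group and 1814 in the Tim-4- group. Psap encodes prosaposin, the precursor of the saposins, which help hydrolases to reach sphingolipids. Cd68 followed with 1655 and 681 CPM per kilobase, and Grn, which encodes progranulin, with 1294 and 837. Lamp1, Lgmn and Hexa came next, in this order of the mean over 8 libraries. At the other end stood Tfeb, Acp5, Atp6v1h and Atp6v0d2, the last at 0.452 and 0.557 CPM per kilobase. Psap alone made up 18.2% to 23.1% of the summed CPM of the members in the Tim-4+ group and 26.0% to 31.6% in the Tim-4- group, and these ranges did not overlap.

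**Figure D1:**
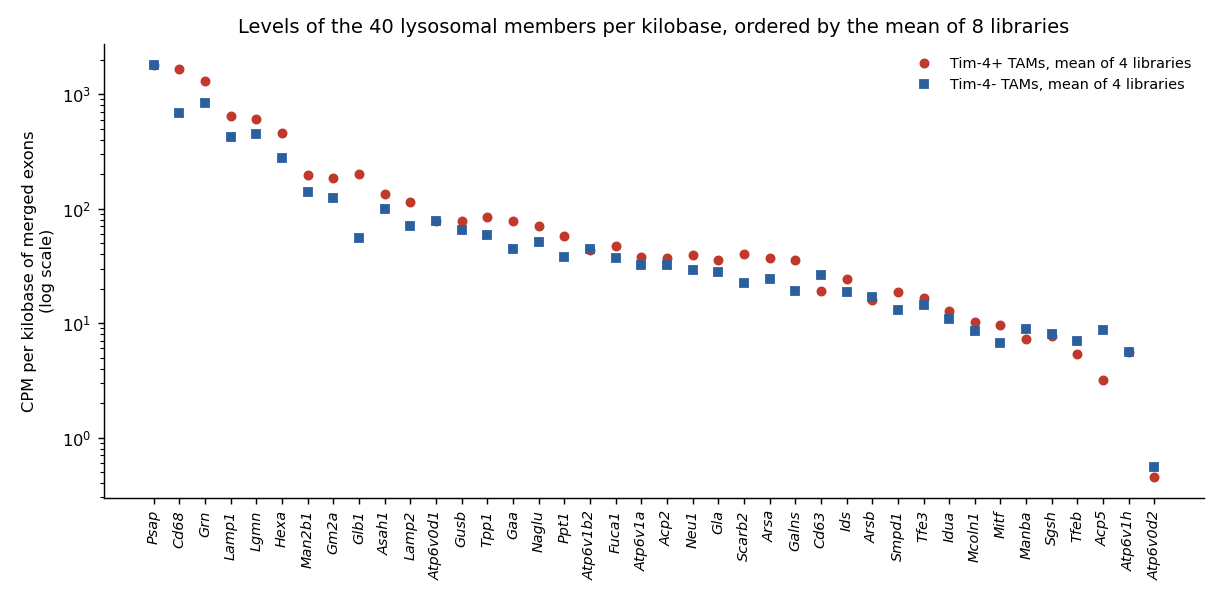
Mean level of each of the 40 genes in CPM per kilobase of merged exons (log scale) in Tim-4+ TAMs (circles) and Tim-4- TAMs (squares), each a mean of 4 libraries, ordered by the mean of 8 libraries. Psap was nearly level between the subsets (1790 and 1814), whereas Cd68 (1655 and 681) and Glb1 (201 and 55.0) stood apart between them.

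Tim-4+ and Tim-4- TAMs were then compared to ask whether lysosomal transcripts differed between the subsets. Most lysosomal hydrolase and membrane protein genes that differed were higher in Tim-4+ TAMs. All 40 members passed the count minimum. Of them 14 rose, namely Glb1, Cd68, Galns, Scarb2, Gaa, Hexa, Lamp2, Ppt1, Lamp1, Arsa, Gm2a, Tpp1, Smpd1 and Asah1, and 1 fell, Acp5, with adjusted p-values under 0.05. Here and below these are from the quasi-likelihood test of edgeR, blocked by pair and adjusted by the Benjamini-Hochberg method for 16861 genes. Over all tested genes 8.97% rose and 8.43% fell. With at least a 2-fold change as well, Glb1 and Cd68 rose, against 3.8% of all tested genes, and Acp5 fell, against 5.79%. The other 25 members were not called. The median log2 fold change of the 40 members was 0.43, and that of all tested genes was -0.00. In 24 members all 4 pairs had the higher normalized count in the Tim-4+ library (22.4% of all tested genes), and in 4 members all pairs had the lower count there (20.2%), namely Acp5, Cd63, Tfeb and Manba.

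The number of members that passed changed with the scaling, the block and the pairs included, and so did the share of all tested genes. With counts scaled by library totals in place of TMM factors, 6 members rose and 8 fell. Under that scaling 4.68% of all tested genes rose and 29.1% fell, and their median shifted to -0.36. The median of the members minus that of all tested genes was 0.43 under either scaling. A change of scale moves all genes of a library by the same factor, so this difference could hardly change and is no check. Of the 14 members that rose, Glb1, Cd68, Galns, Scarb2, Gaa and Hexa passed under both scalings. Without the pair block 2 members rose (Glb1 and Gaa), against 0.872% of all tested genes. With DESeq2, another test for counts, 22 rose and 2 fell, against 13% and 13.8%. Leaving out pair 784 left 1 member that rose, Glb1, where 0.534% of all tested genes rose. Leaving out pair 779 or pair 793 left 3 (Glb1, Cd68 and Gaa), against 2.75% and 4.67%. Leaving out pair 783 gave 15 that rose and 2 that fell, against 9.59% and 11.8%.

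**Figure D2:**
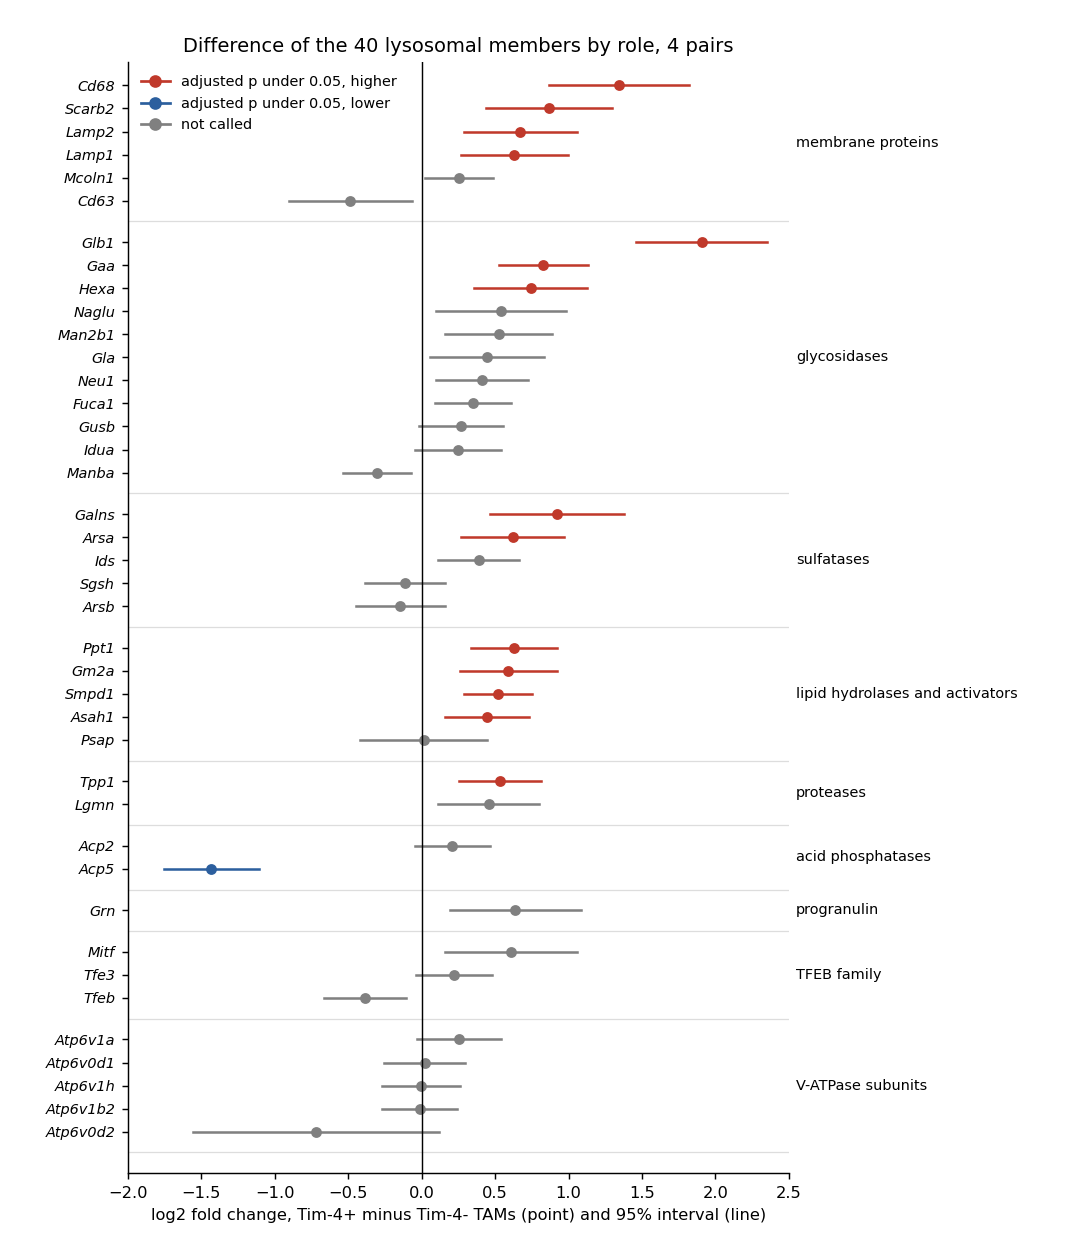
Fitted log2 fold change (Tim-4+ minus Tim-4- TAMs, TMM scaling) of the 40 genes by role, with 95% intervals over 4 pairs. Red points rose and the blue point fell at an edgeR adjusted p under 0.05. Glb1 (1.91) and Acp5 (-1.43) lie at the ends, and the V-ATPase subunits lie around 0 except Atp6v0d2 (-0.72). With library totals as the scale, the sign turned for Mcoln1, Gusb, Idua, Fuca1, Psap, Acp2, Tfe3, Atp6v0d1 and Atp6v1a.

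Among the glycosidases, which remove sugars from glycoproteins, glycolipids and glycosaminoglycans, 3 of 11 rose and the median log2 fold change was 0.44. Glb1 encodes the lysosomal beta-galactosidase (chr9:114401076-114474898, GRCm38, plus strand) and had the largest rise of the 40 members. Its level was 592, 555, 560 and 715 CPM in Tim-4+ TAMs and 204, 114, 203 and 141 CPM in Tim-4- TAMs. Every Tim-4+ library stood above every Tim-4- library, with the closest at 555 and 204 CPM. The means were 606 ± 74.6 and 165 ± 45.5 CPM (SD, n = 4 each), and the fitted difference was 3.75-fold (log2 fold change 1.91, SE 0.19, edgeR adjusted p = 0.00395). Glb1 passed the threshold under each of the 12 alternative settings.

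Gaa encodes acid alpha-glucosidase, which degrades lysosomal glycogen. It was at 330, 411, 359 and 405 CPM in Tim-4+ TAMs and at 210, 184, 228 and 224 CPM in Tim-4- TAMs. The groups did not overlap, and the rise was 1.78-fold (log2 fold change 0.83, SE 0.13, edgeR adjusted p = 0.00962). Hexa encodes a subunit of an enzyme that degrades GM2 ganglioside. Its level was 984, 765, 792 and 1099 CPM in Tim-4+ TAMs and 637, 382, 647 and 533 CPM in Tim-4- TAMs, again without overlap, and the rise was 1.67-fold (log2 fold change 0.74, SE 0.17, edgeR adjusted p = 0.0235). Without pair 784 the edgeR adjusted p was 0.0613 for Gaa and 0.122 for Hexa, and Hexa also missed the threshold without pair 779 or pair 793.

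The other 8 glycosidases were not called. Man2b1, the lysosomal alpha-mannosidase, was at 1374 to 1674 CPM in Tim-4+ TAMs and 882 to 1354 CPM in Tim-4- TAMs, with a log2 fold change of 0.52 and an edgeR adjusted p of 0.056. Naglu (0.54), which removes N-acetylglucosamine from heparan sulfate, Gla (0.44), the alpha-galactosidase, Neu1 (0.41), a sialidase, and Fuca1 (0.35), a fucosidase, had edgeR adjusted p-values of 0.0672 to 0.107. Gusb, the beta-glucuronidase, and Idua, the iduronidase of heparan and dermatan sulfate, had log2 fold changes of 0.27 and 0.25. Manba, the beta-mannosidase, had a log2 fold change of -0.30 (edgeR adjusted p = 0.075) and was lower in the Tim-4+ library of each pair. Gusb, Idua and Fuca1 took the opposite sign with library totals as the scale.

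The sulfatases remove sulfate groups, chiefly from glycosaminoglycans and sulfatide, and 2 of 5 rose. Galns, which acts on keratan sulfate and chondroitin sulfate, was at 78.9, 114, 84.4 and 97.4 CPM in Tim-4+ TAMs and at 48.2, 39.7, 67.9 and 44.4 CPM in Tim-4- TAMs. Arsa, which acts on sulfatide, was at 141, 131, 112 and 157 CPM in Tim-4+ TAMs and at 97.3, 61.3, 99.1 and 99.0 CPM in Tim-4- TAMs. Neither gene overlapped between the groups, and the smallest ratio within a pair was that of pair 783 for both. The log2 fold change was 0.92 for Galns (SE 0.19, 1.89-fold, edgeR adjusted p = 0.0223) and 0.62 for Arsa (SE 0.15, 1.54-fold, edgeR adjusted p = 0.0307). Ids, the iduronate sulfatase, was at 0.39 (edgeR adjusted p = 0.062), while Sgsh (-0.11) and Arsb (-0.15) had log2 fold changes whose 95% intervals included 0. Without pair 779, 784 or 793 Galns and Arsa missed the threshold, with edgeR adjusted p-values of 0.0599 to 0.117.

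Of the 5 genes for the breakdown of lipids 4 rose, and the median log2 fold change was 0.52. Ppt1 encodes palmitoyl-protein thioesterase, which removes fatty acids from proteins. It was at 210, 197, 214 and 232 CPM in Tim-4+ TAMs and at 148, 113, 168 and 127 CPM in Tim-4- TAMs, without overlap (log2 fold change 0.63, SE 0.13, 1.55-fold, edgeR adjusted p = 0.0173). Gm2a encodes the activator that presents GM2 ganglioside for breakdown. It was at 699, 575, 853 and 943 CPM in Tim-4+ TAMs and at 555, 354, 623 and 513 CPM in Tim-4- TAMs, so the groups overlapped although every pair showed the same direction (log2 fold change 0.59, SE 0.14, 1.51-fold, edgeR adjusted p = 0.03). Smpd1, the acid sphingomyelinase, rose from 43.2 ± 4.21 CPM in Tim-4- TAMs to 61.8 ± 4.86 CPM in Tim-4+ TAMs (mean ± SD of 4 libraries), which gave 0.52 as log2 fold change (edgeR adjusted p = 0.0158). Asah1, the acid ceramidase, had a log2 fold change of 0.45 (edgeR adjusted p = 0.0442) and ranges of 360 to 575 CPM in Tim-4+ TAMs and 283 to 436 CPM in Tim-4- TAMs. Psap, the precursor of the activators, was at 3937 to 6141 CPM and 3560 to 7357 CPM, with a log2 fold change of 0.01 and a 95% interval of -0.42 to 0.44, and its sign turned with library totals as the scale. Without pair 779, 784 or 793 the 4 called genes missed the threshold, with edgeR adjusted p-values of 0.0502 to 0.15, as did Asah1 without pair 783 (0.0835).

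Of the 6 membrane proteins 4 rose, and their median log2 fold change was 0.65. Cd68, a heavily glycosylated protein of macrophage lysosomes, was at 1719, 2116, 2335 and 2151 CPM in Tim-4+ TAMs and at 805, 584, 1331 and 704 CPM in Tim-4- TAMs. The Tim-4- library of pair 783 was the highest of its group and still lay below all Tim-4+ libraries. The rise was 2.54-fold (log2 fold change 1.34, SE 0.21, edgeR adjusted p = 0.00891), and the edgeR adjusted p was 0.063 without pair 784 and 0.0527 without the pair block. Scarb2 encodes LIMP-2, an abundant protein of the lysosomal membrane. It was at 237, 269, 216 and 298 CPM in Tim-4+ TAMs and at 140, 114, 184 and 127 CPM in Tim-4- TAMs, without overlap (log2 fold change 0.87, SE 0.18, 1.82-fold, edgeR adjusted p = 0.0216).

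Lamp1 and Lamp2 encode the main glycoproteins of the lysosomal membrane. Lamp2 was at 1034, 1049, 962 and 1284 CPM in Tim-4+ TAMs and at 673, 666, 787 and 590 CPM in Tim-4- TAMs. Lamp1 was at 1622, 1563, 1847 and 1886 CPM in Tim-4+ TAMs and at 1158, 854, 1442 and 1075 CPM in Tim-4- TAMs. Neither overlapped between the groups. The log2 fold change was 0.67 for Lamp2 (SE 0.17, 1.59-fold, edgeR adjusted p = 0.0318) and 0.63 for Lamp1 (SE 0.16, 1.55-fold, edgeR adjusted p = 0.0326). Without pair 779, 784 or 793 Scarb2, Lamp1 and Lamp2 missed the threshold, with edgeR adjusted p-values of 0.0661 to 0.148. Mcoln1, which encodes a calcium channel of the lysosomal membrane, had a log2 fold change of 0.26 (edgeR adjusted p = 0.117) that turned negative with library totals as the scale. Cd63, a tetraspanin of late endosomes, was lower in the Tim-4+ library of each pair, with a log2 fold change of -0.49 (edgeR adjusted p = 0.102). Its within-pair log2 ratio was -1.17 in pair 779 and between -0.47 and -0.15 in the other pairs.

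**Figure D3:**
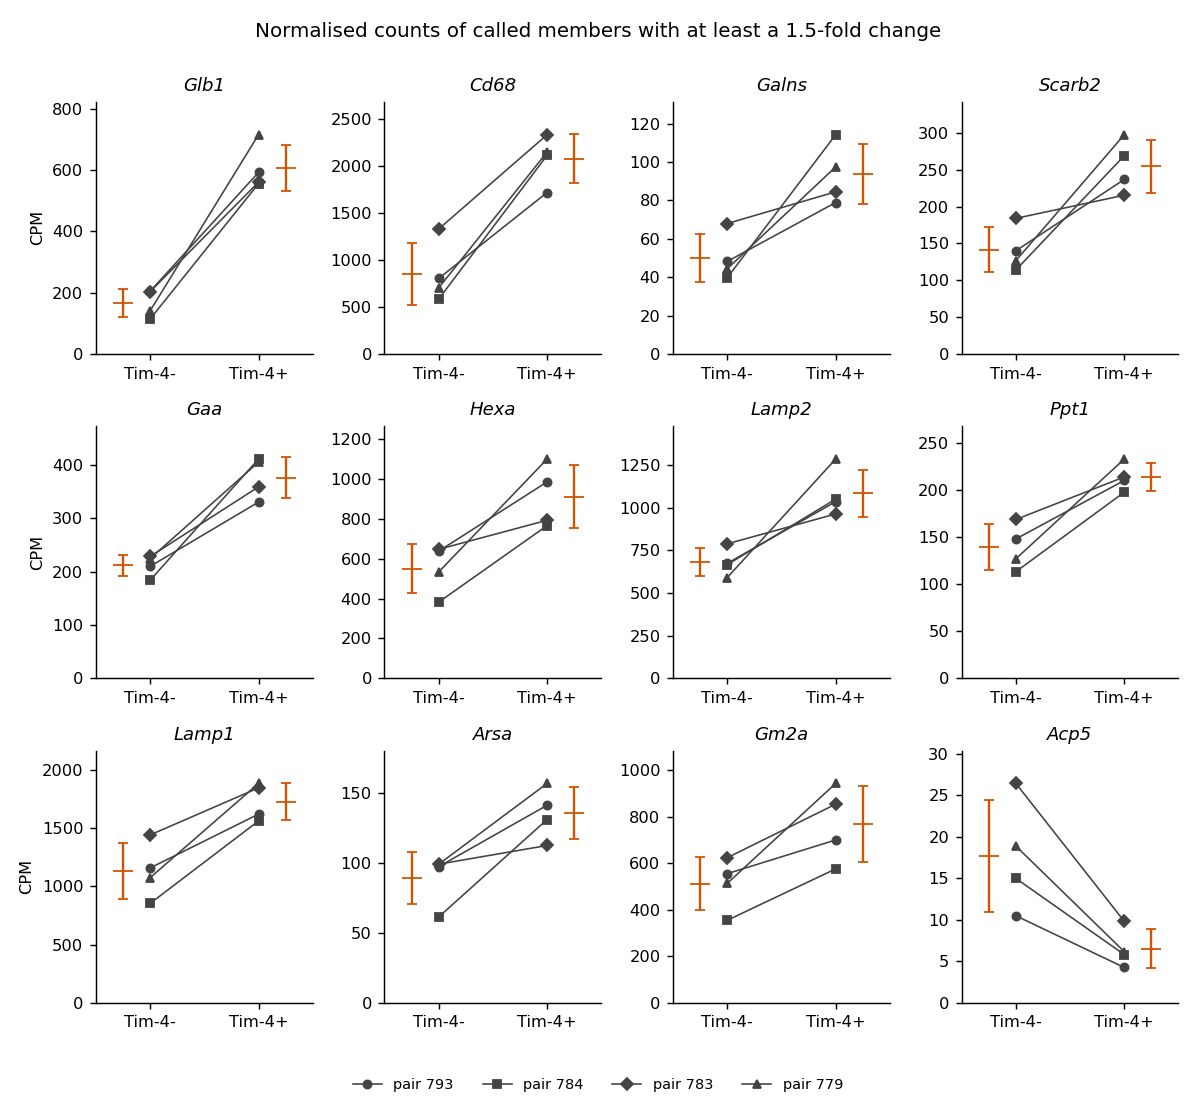
Normalized counts (CPM, linear axes from 0) in each library of the 12 called genes with at least a 1.5-fold fitted change. Lines join the Tim-4- and Tim-4+ libraries of a pair, and the orange marks beside them give the mean and SD of 4 libraries. All lines of Acp5 descend and all others climb. Of the genes shown, which were chosen by their call and size, Gm2a was alone in having overlapping groups. Of all 16861 tested genes, 1154 had groups that did not overlap and were higher in Tim-4+ TAMs, and 998 were lower.

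The proteases and acid phosphatases did not move as 1 group. Tpp1, tripeptidyl peptidase 1, rose, with 386 to 506 CPM in Tim-4+ TAMs and 249 to 384 CPM in Tim-4- TAMs (log2 fold change 0.53, SE 0.12, edgeR adjusted p = 0.0235), and missed the threshold without pair 784 (edgeR adjusted p = 0.109), pair 779 or pair 793. Lgmn, an asparaginyl endopeptidase that processes cathepsins, had a log2 fold change of 0.46 (edgeR adjusted p = 0.0727), and both groups had their highest value in pair 783, at 1999 and 1745 CPM. Acp2, the lysosomal acid phosphatase, had a log2 fold change of 0.21 (edgeR adjusted p = 0.225), which turned negative with library totals as the scale.

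Acp5 encodes tartrate-resistant acid phosphatase, which is best known from osteoclasts, the bone-resorbing cells of the macrophage lineage. It was at 4.24, 5.80, 9.81 and 6.16 CPM in Tim-4+ TAMs and at 10.5, 15.0, 26.4 and 18.9 CPM in Tim-4- TAMs. The groups did not overlap, although the highest Tim-4+ library (9.81 CPM, pair 783) was close to the lowest Tim-4- library (10.5 CPM, pair 793). The log2 ratio within pairs lay between -1.61 and -1.30. The fitted difference was 2.70-fold lower (log2 fold change -1.43, SE 0.14, edgeR adjusted p = 0.00386), and without the pair block its edgeR adjusted p was 0.059. Acp5 was at 3.20 and 8.72 CPM per kilobase in the Tim-4+ and Tim-4- groups and so ranked among the low members of the list. Of 10 genes of osteoclasts and fused macrophages 5 were tested, and none of these was called by edgeR, while 1 was higher in Tim-4+ TAMs at an unadjusted p under 0.05 and 1 by DESeq2. Their levels differed widely. Nfatc1, the gene with that unadjusted p, was at 67.4 to 108 CPM in Tim-4+ TAMs and 39.3 to 108 CPM in Tim-4- TAMs. Tnfrsf11a was at 22.0 to 57.9 CPM and 20.2 to 65.2 CPM. Ctsk, the osteoclast collagenase cathepsin K, was at 0.187 to 3.64 CPM and 0.675 to 1.29 CPM, and Dcstamp, a fusion receptor, at no more than 0.39 CPM in any library.

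Grn encodes progranulin, a secreted protein that is cleaved to granulins in the lysosome. It was at 4362 to 5125 CPM in 3 Tim-4+ libraries and 4031 CPM in the Tim-4+ library of pair 793, against 2422 to 3501 CPM in Tim-4- TAMs. The groups did not overlap, yet the edgeR adjusted p was 0.0565 for a log2 fold change of 0.64. Grn was called with DESeq2 and without the count minimum. Grn, Man2b1, Neu1, Fuca1 and Ids had groups that did not overlap without being called. Groups did not overlap in 17 of the 40 members that were higher in Tim-4+ TAMs and in 1 that was lower. Over all 16861 tested genes these numbers were 1154 and 998.

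The size of the differences varied between pairs. The median within-pair log2 ratio of the 40 members was 0.25 in pair 793, 0.61 in pair 784, 0.20 in pair 783 and 0.55 in pair 779, while that of all tested genes lay between -0.01 and 0.02. Glb1 followed the same order of pairs in part, with 1.53, 2.28, 1.46 and 2.35. Galns ranged from 0.31 in pair 783 to 1.52 in pair 784. In pair 783 the Tim-4- library had the highest summed member level of its group, at 23284 CPM, against 13642 CPM in pair 784, 15813 CPM in pair 779 and 17453 CPM in pair 793. The Tim-4+ libraries lay between 21627 and 26544 CPM. Timd4 was lowest among the Tim-4+ libraries in pair 783, at 524 CPM, and tumor and mesothelial markers were highest in the Tim-4- libraries of pairs 779 and 784, at 1960 and 1285 CPM. Whether these values bear on the size of the differences was not tested.

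**Figure D4:**
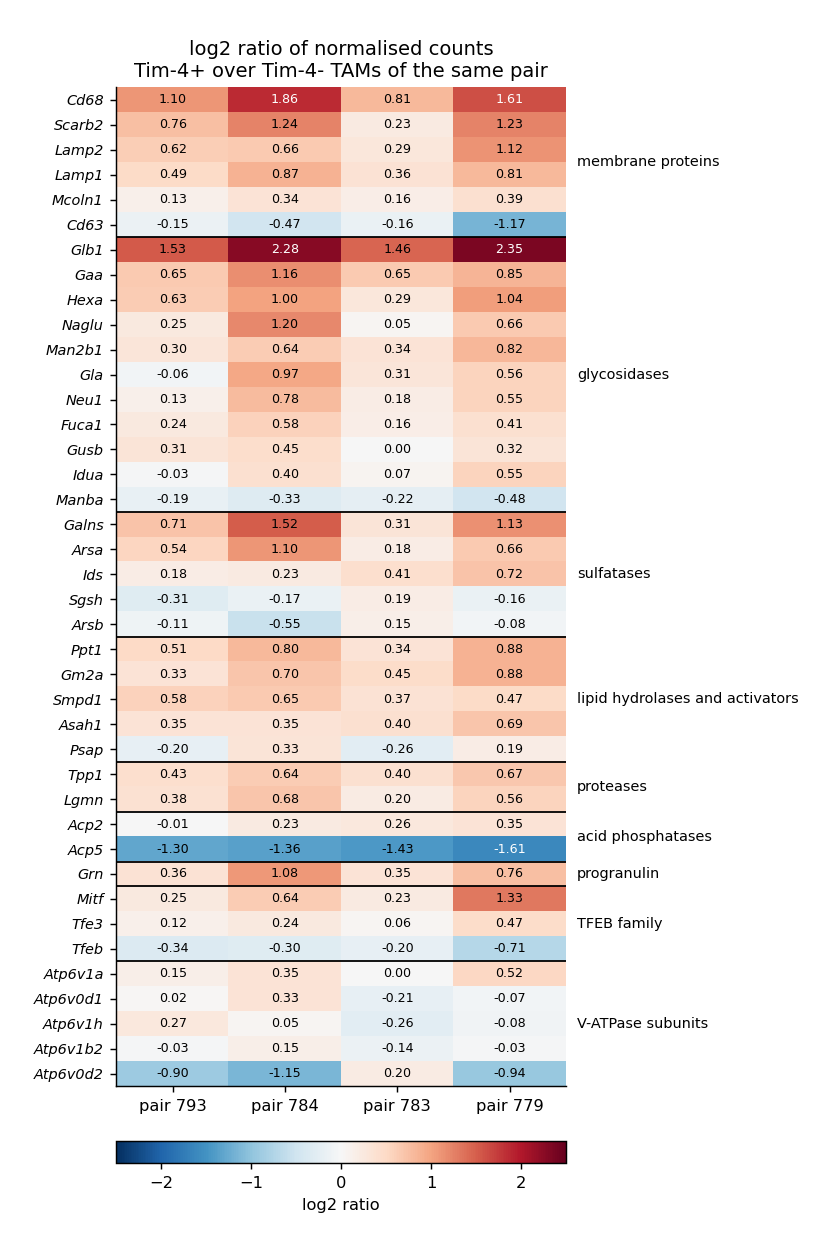
Within-pair log2 ratio of normalized counts (Tim-4+ over Tim-4- TAMs, TMM scaling) for each of the 40 genes, by role, with 1 column per pair. Red cells are higher and blue cells lower in Tim-4+ TAMs. The columns of pairs 784 and 779 are more intense (median 0.61 and 0.55) than those of pairs 793 and 783 (0.25 and 0.20).

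None of the 3 TFEB family genes was called by edgeR with TMM factors, and they did not point the same way. Of them 1 was higher and 1 lower at an unadjusted p under 0.05, and DESeq2 called the same number in each direction. Tfeb was at 35.3, 25.0, 39.7 and 22.3 CPM in Tim-4+ TAMs and at 44.8, 30.7, 45.5 and 36.4 CPM in Tim-4- TAMs. It was the lower of the pair in all 4 pairs, but the groups overlapped (log2 fold change -0.39, SE 0.12, edgeR adjusted p = 0.0613). With library totals as the scale Tfeb was called lower (-0.74, edgeR adjusted p = 0.0141), against a median of -0.36 over all tested genes. Mitf was at 65.0, 35.3, 69.4 and 69.7 CPM in Tim-4+ TAMs and at 54.7, 22.6, 59.4 and 27.7 CPM in Tim-4- TAMs. It was the higher in all 4 pairs, with both libraries of pair 784 low (log2 fold change 0.61, SE 0.19, edgeR adjusted p = 0.0673). Without pair 783 Mitf passed the threshold. Tfe3, whose product is closely related to TFEB, was at 143, 194, 150 and 123 CPM in Tim-4+ TAMs and at 132, 165, 144 and 89.1 CPM in Tim-4- TAMs. Tfe3 had a log2 fold change of 0.22 (edgeR adjusted p = 0.206), with the sign turned by library totals as the scale. Per kilobase Tfe3 was the highest of the 3 genes, with a mean of 16.5 CPM in Tim-4+ TAMs, followed by Mitf at 9.66 and Tfeb at 5.39. Transcript levels do not measure where these factors are in the cell.

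Of 16 genes for regulators of these factors and the fourth family member, 3 rose by edgeR and none fell, against 8.97% and 8.43% of all tested genes. At an unadjusted p under 0.05 there were 4 higher and 1 lower, beside 2825 and 2846 of all 16861 tested genes. Tfec, the fourth family member, which is largely restricted to macrophages, was at 15.4 to 23.2 CPM in Tim-4+ TAMs and 6.06 to 14.7 CPM in Tim-4- TAMs, with a log2 fold change of 1.02 (SE 0.20, edgeR adjusted p = 0.0167). Lamtor1 (0.63, edgeR adjusted p = 0.0147) and Lamtor2 (0.44, edgeR adjusted p = 0.0451) encode parts of the Ragulator complex, which anchors the Rag GTPases and mTORC1 at the lysosome. All 3 missed the threshold without pair 779 or pair 784 (edgeR adjusted p 0.052 to 0.153), and Lamtor1 and Lamtor2 with library totals as the scale. Mtor and Rptor had log2 fold changes of -0.21 and -0.18 and were not called.

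The V-ATPase subunits showed no difference that passed the test. None of the 5 was called by edgeR or DESeq2 or had an unadjusted p under 0.05, and their median log2 fold change was -0.01. Atp6v1a encodes the catalytic A subunit of V1. It was at 223, 221, 240 and 229 CPM in Tim-4+ TAMs and at 201, 173, 241 and 160 CPM in Tim-4- TAMs, and the Tim-4- group was the more spread. Atp6v1b2 encodes the B subunit, which forms the catalytic ring with A. It was at 256, 180, 243 and 244 CPM in Tim-4+ TAMs and at 261, 162, 269 and 248 CPM in Tim-4- TAMs, and pair 784 was the lowest in both groups. Atp6v1h encodes the regulatory H subunit and was at 58.5, 62.0, 43.5 and 55.3 CPM in Tim-4+ TAMs and at 48.5, 60.1, 52.1 and 58.4 CPM in Tim-4- TAMs.

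Atp6v0d1 and Atp6v0d2 encode alternative d subunits of V0, the first used widely and the second in osteoclasts, kidney and some macrophages. Atp6v0d1 was at 143, 136, 128 and 155 CPM in Tim-4+ TAMs and at 140, 108, 148 and 162 CPM in Tim-4- TAMs. Atp6v0d2 was at 0.483, 0.200, 3.40 and 0.832 CPM in Tim-4+ TAMs and at 0.944, 0.506, 2.96 and 1.64 CPM in Tim-4- TAMs, and the libraries of pair 783 were the highest of both groups. Nearly all d subunit transcripts of both subsets were thus those of Atp6v0d1, with means of 78.4 and 77.9 CPM per kilobase against 0.452 and 0.557.

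The intervals of these differences were narrow for the 4 abundant subunits. The log2 fold change was 0.25 for Atp6v1a (95% interval -0.03 to 0.54), 0.02 for Atp6v0d1 (-0.26 to 0.30), -0.01 for Atp6v1h (-0.27 to 0.26) and -0.01 for Atp6v1b2 (-0.27 to 0.24), but it was -0.72 for Atp6v0d2 (-1.56 to 0.12). A change of the size fitted for Lamp1 (0.63) lay outside the intervals of the 4 abundant subunits under this scaling. The interval of Atp6v1a, however, held the smaller changes fitted for the called members Tpp1 (0.53), Smpd1 (0.52) and Asah1 (0.45). With library totals as the scale, the signs of Atp6v0d1 and Atp6v1a turned, and Atp6v0d1 (-0.34) and Atp6v1b2 (-0.37) were called lower, as were 29.1% of all tested genes, whose median was -0.36. The summed level of the 5 subunits was 599 to 684 CPM in Tim-4+ TAMs and 504 to 712 CPM in Tim-4- TAMs.

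**Figure D5:**
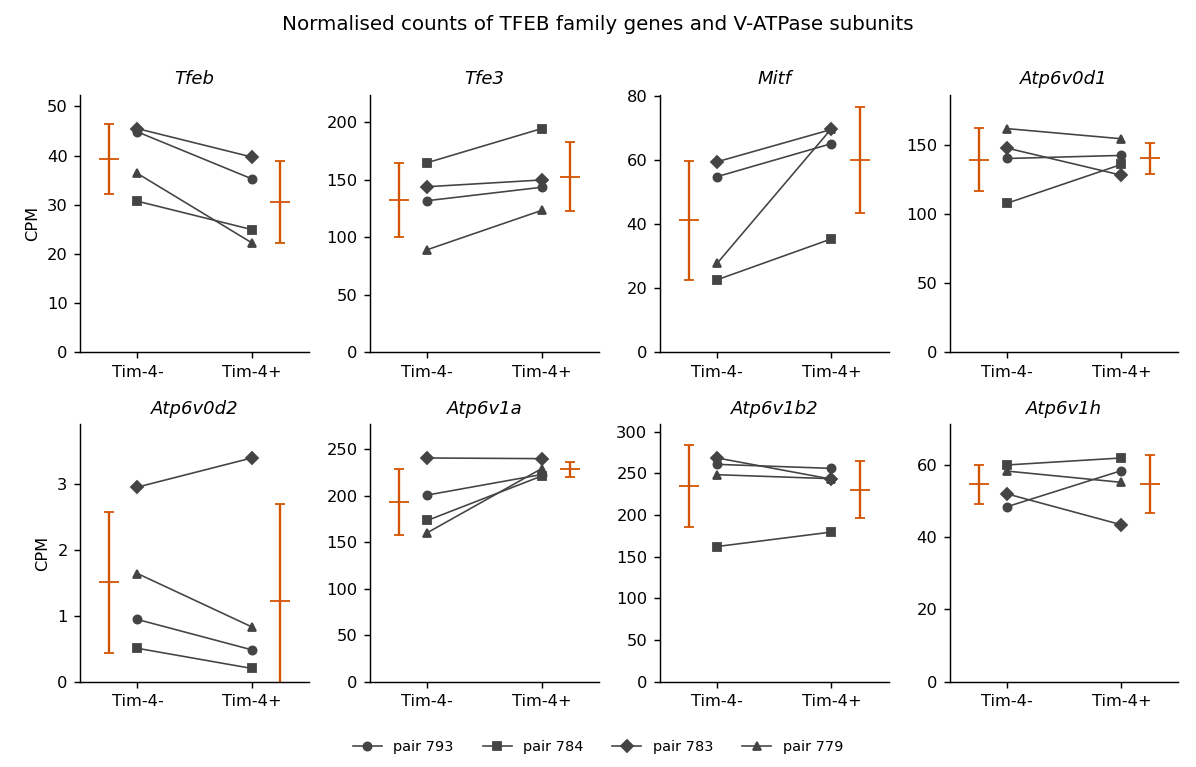
Normalized counts (CPM, linear axes from 0) of the 3 TFEB family genes and 5 V-ATPase subunits in each library, with lines joining the libraries of a pair and orange marks for the mean and SD of 4 libraries (for Atp6v0d2 in Tim-4+ TAMs the SD bar ends at 0). Lines of Tfeb descend and those of Mitf climb in all 4 pairs, although Tfe3, which climbs here, took the opposite sign with library totals as the scale, and so did Atp6v0d1 and Atp6v1a. The lines of Atp6v0d1, Atp6v1b2 and Atp6v1h cross or lie nearly flat.

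Of 20 further V-ATPase subunits and accessory genes 14 were tested and 2 rose by edgeR, against 8.97% of all tested genes. There were 6 higher and none lower at an unadjusted p under 0.05, beside 2825 and 2846 of all 16861 tested genes. DESeq2 called 4 higher and none lower, against 13% and 13.8% of all tested genes. Their median log2 fold change in edgeR was 0.19. Atp6v0c, which encodes the proteolipid ring of V0, was at 593 to 726 CPM in Tim-4+ TAMs and 372 to 491 CPM in Tim-4- TAMs (log2 fold change 0.55, SE 0.15, edgeR adjusted p = 0.0404). Atp6v1e1, a stalk subunit of V1, had a log2 fold change of 0.41 (edgeR adjusted p = 0.0426). Both missed the threshold with library totals as the scale, without the pair block and with any 1 pair left out, where the edgeR adjusted p was 0.053 to 0.155. The 20 genes include tissue-restricted isoforms, and the 6 that were not tested were at no more than 0.588 CPM in any library. Among these 6 was Atp6v1c1, chosen here after its values were seen, which encodes the widely used C subunit and was at no more than 0.0731 CPM in any library. None of its 50-base stretches of transcript occurred in the annotated transcripts of another gene, and other parts of the genome were not compared. Mfsd8, a lysosomal membrane gene used in many tissues, was listed at 0 in all libraries. These 2 genes are given only as listed at or near 0, since such a value can come from the counting.

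Other lysosomal genes were read beside the members. Of 18 further genes, mostly of hydrolases, 5 rose, against 8.97% of all tested genes, and none was called lower by edgeR or DESeq2. Their median log2 fold change was 0.35. The list also holds Hgsnat, which rose, and Sumf1, the 1 gene lower at an unadjusted p under 0.05, where 11 were higher. The products of these 2 genes are not hydrolases. The largest rises were those of Arsg (1.57, SE 0.29), a sulfatase of heparan sulfate, Smpdl3a (1.29, SE 0.21), a phosphodiesterase related to acid sphingomyelinase, Man2b2 (1.17, SE 0.20), an alpha-mannosidase, and Hgsnat (0.85, SE 0.15), which acetylates heparan sulfate for its breakdown. Smpdl3a was at 782 to 1274 CPM in Tim-4+ TAMs and 266 to 626 CPM in Tim-4- TAMs.

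Of 23 further membrane and transport genes 22 were tested, of which 3 rose and 1 fell. Over all tested genes 8.97% rose and 8.43% fell. Laptm5 (0.97), a lysosomal protein of hematopoietic cells, Slc11a1 (0.59), a metal transporter of phagosomes, and Cd164 (0.39), a sialomucin, rose, and Tpcn1 (-1.08, edgeR adjusted p = 0.0122), a cation channel of endosomes and lysosomes, fell. Of 9 genes for the delivery of hydrolases 3 rose and 1 fell. Sort1 (0.88, edgeR adjusted p = 0.0065), the sorting receptor sortilin, Igf2r (0.61), the large mannose 6-phosphate receptor, and Gnptg (0.49), part of the enzyme that makes the mannose 6-phosphate tag, rose, and Gga2 (-0.95, edgeR adjusted p = 0.0116), a trafficking adaptor, fell. Over these lists together with the further V-ATPase genes 13 of 63 tested genes rose and 2 fell, beside the same shares of all tested genes. Their median log2 fold change was 0.22. With library totals as the scale 6 rose and 17 of 63 fell, where 29.1% of all tested genes fell. Without the pair block 2 rose, against 0.872% of all tested genes. Without pair 784 none was called by edgeR, where 0.534% of all tested genes rose and 0.393% fell. There 16 were higher and 3 lower at an unadjusted p under 0.05. In the fit of all pairs, 2825 of all 16861 tested genes were higher and 2846 lower at such a p.

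Some members overlap other genes or share transcript sequence with them, and their counts are less certain because it is not given whether counting used strand. Of all 50-base stretches in its annotated transcripts, Arsb shared 38.5% with other genes, chiefly Gm26527, Sgsh 18.5% with Card14 and Arsa 15.8% with C230037L18Rik. Cd63 shared 11.1%, chiefly with the pseudogene Cd63-ps, Hexa 10.6% with Tmem202, and Acp2 9.78%, chiefly with Ddb2. Atp6v0c, of the further V-ATPase genes, shared 10.8%, chiefly with the pseudogene Atp6v0c-ps2. For Glb1 the share was 4.26%, for Acp5 4.64% and for Lamp1 5.91%. Glb1 overlaps Tmppe and Galns overlaps Gm20388 on the same strand, and Manba and Arsb also have an overlapping gene on their own strand. Galns and Manba nevertheless shared no 50-base stretch of transcript with another gene.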

How the data were processed

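The files deposited by the authors hold raw, unnormalized counts of reads on each gene, for each of 2 lanes of 8 libraries. Libraries were stranded, made from rRNA-depleted total RNA and sequenced from both ends. Per the labels, processing used FastQC 0.11.3, TopHat2 2.0.13 and Cuffdiff 2.2.1 with GRCm38. The methods name a human reference instead, but 15 of 16 lanes list mouse Ensembl identifiers. The counter and its strand setting are not given in the sources used here. Rows naming no gene, present in 15 lanes, were left out. They held 29.8% to 32.9% of a lane, except 18.9% in lane 2 of the Tim-4- library of pair 779, where 3153643 reads were listed as not unique against 10020232 in its lane 1. Lane 1 of the Tim-4- library of pair 793, listed by symbol, was joined by row order, and 96.9% of 53618 symbols matched. Between lanes, chi-square per degree of freedom was 2.29 to 2.42, and lanes were summed as 1 replicate. Of the identifiers 98.4% were found in GENCODE M21 (GRCm38).

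Genes that reached 10 counts in 4 or more libraries were tested with edgeR 4.0.16 in R 4.3.3 (glmQLFit, robust, TMM factors, the pair number as a block, Benjamini-Hochberg adjustment over 16861 genes). The SE is the log2 fold change divided by the square root of F. CPM are TMM-scaled. Deviations from the group means of libraries with the same label number correlated across genes at r = 0.277 to 0.498 in the 4 pairs, and at 0.066 at most between other numbers, so the numbers were used as pairs. Alternatives were no replicate block (2 members higher), DESeq2 1.42.0 as test or scaling, library totals, 2 other count minimums, lane 2 alone, no symbol-listed lane and each pair left out. Calculations were tested on simulated data. All 40 members are named. Values in every library are given for members called with at least a 1.5-fold change, TFEB family genes and V-ATPase subunits. From each other list the text gives at most 5 called genes of at least 5 CPM with the largest change, and other genes named from those lists were chosen after their values were seen. Some genes of these lists are not reported here by name. Members and lists were chosen with earlier results of these data known.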

Additional observations from a re-analysis of the deposited data

Results flagged for a closer look

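In 80 groups of 4 libraries (40 members in each subset), the lowest and the highest library were read by Dixon's criterion. Of these groups 5 held a library far from the other 3, and chance gives about 4 for both sides together. All 5 lay on the low side, for which chance alone gives fewer than 4. The Tim-4+ library of pair 784 was low for Man2b1 (1374 CPM, next 1662), Mitf (35.3 CPM, next 65.0) and Atp6v1b2 (180 CPM, next 243). The Tim-4- library of pair 784 was low for Arsa (61.3 CPM, next 97.3), and the Tim-4- library of pair 779 was low for Ids (66.6 CPM, next 102).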

How the results depend on the processing

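Members called higher and lower numbered 14 and 1 in the fit described. They numbered 2 and 0 without the replicate block (17 and 1 at an unadjusted p under 0.05 in edgeR), 6 and 8 with library totals, where the member median was 0.070 and that of all tested genes -0.36, and 22 and 2 with the DESeq2 test. DESeq2 size factors, both other count minimums, lane 2 alone and the omission of the symbol-listed lane gave 13 to 16 higher and 1 lower. With each pair left out, members called higher ranged from 1 (without pair 784) to 15 and lower from 1 to 2, and the median from 0.30 to 0.49. In the other lysosomal lists 13 and 2 were called, 2 and 0 without the block, 6 and 17 with library totals, and 0 to 13 and 0 to 3 with pairs left out. DESeq2 calls numbered 19 and 3 there.

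Some signs turned. With library totals, where the median of all tested genes was -0.36, these were Mcoln1 (-0.10), Gusb (-0.089), Idua (-0.11), Fuca1 (-0.0086), Psap (-0.34), Acp2 (-0.15), Tfe3 (-0.14), Atp6v0d1 (-0.34) and Atp6v1a (-0.10). Without the block they were Psap (-0.019) and Atp6v1h (0.0016), and without a count minimum Psap (-0.0024). With pairs left out, Psap ranged from -0.091 to 0.10, Atp6v0d1 from -0.084 to 0.094, Atp6v1b2 from -0.067 to 0.028 and Atp6v1h from -0.091 to 0.076. Causes were not tested. With lane 2 alone, at lower depth, the edgeR adjusted p of Asah1 was 0.0505.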
